A study of Mus musculus with 16 samples.

Results

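The mouse immunoglobulin kappa variable genes, whose symbols start with Igkv, encode the variable end of the kappa light chain. All 160 genes with such a symbol among the 53342 genes of each deposited table were taken, with no use of their values. RNA came from bone marrow cells of C57BL/6J mice aged 8 to 14 weeks, sorted for Sca1+ and c-Kit+ cells without lineage markers (LSK cells, negative for B220, CD3, CD4, CD5 and CD8), with 3000 to 10000 cells per replicate. The groups compared were wild type with PBS (n = 5), Gata2 +9.5(Ets)-/- with PBS (n = 5), wild type with 250 mg/kg 5-FU (5-fluorouracil, n = 3) and Gata2 +9.5(Ets)-/- with 250 mg/kg 5-FU (n = 3), all at 10 days. In the mutant a C-to-T substitution alters the Ets motif of an intronic enhancer of Gata2, which encodes a transcription factor of blood stem cells. The labels do not say that replicates are separate mice, so p-values measure the spread between these samples, which may be technical.

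A developing B cell joins a single V gene to a J gene, Igkj, by cutting out or inverting the DNA between them, and the joined exon is spliced to the constant exon, Igkc. Each B cell and its descendants therefore transcribe mainly the V gene they joined, and plasma cells, which secrete antibody, hold far more of this RNA than resting B cells. The share of each V gene among all Igkv counts of a library thus describes a mixture of rearranged cells weighted by their RNA. In such bulk samples, fewer cells of a type and less RNA per cell cannot be told apart. LSK cells are blood stem and early progenitor cells, which are not known for rearranged kappa transcripts.

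The 160 genes lie on chromosome 6 of GRCm38 between positions 67555497 and 70704177. The joining gene nearest to them, Igkj1, starts at 70722562 and Igkc spans 70726435 to 70726966. The annotation (GENCODE M21) lists 100 of the 160 as functional V genes and 60 as pseudogenes, in 20 families, with 75 on the plus strand and 85 on the minus strand. Counts above 0 were found for 113 genes, 98 functional and 15 pseudogenes. The other 47, which include 2 functional genes, were at 0 in all 16 libraries.

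The gene with the largest mean share, Igkv14-126, spans chr6:67896172-67896642 on the plus strand, 2825.9 kb from Igkj1. Its last coding exon is shown because this gene held the largest share in most libraries. The second line is Igkv14-111, its closest functional copy, and the 27 capitals in each line are the bases at which the aligned exons differ. Over the spliced transcripts the pair was 91.6% identical and shared none of the 101-base windows that equal the read length implied by the tables.
Igkv14-126, chr6:67896345-67896642: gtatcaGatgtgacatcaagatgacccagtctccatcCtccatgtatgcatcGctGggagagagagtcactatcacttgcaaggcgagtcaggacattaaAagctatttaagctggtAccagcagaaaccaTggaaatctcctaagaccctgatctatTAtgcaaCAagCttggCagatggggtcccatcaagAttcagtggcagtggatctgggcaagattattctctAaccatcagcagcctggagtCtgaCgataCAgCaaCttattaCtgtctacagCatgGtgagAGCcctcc
Igkv14-111, chr6:68256572-68256869: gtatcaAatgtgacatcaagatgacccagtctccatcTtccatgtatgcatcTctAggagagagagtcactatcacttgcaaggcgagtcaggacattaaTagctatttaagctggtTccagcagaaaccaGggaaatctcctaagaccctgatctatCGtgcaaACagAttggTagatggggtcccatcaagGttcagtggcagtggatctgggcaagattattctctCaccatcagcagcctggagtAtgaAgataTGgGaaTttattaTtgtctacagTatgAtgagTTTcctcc

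The 6 genes with the largest mean shares belong to 6 different families. Their last 60 coding bases are shown because the end of a V gene encodes the start of the third hypervariable loop, which touches antigen. The capitals are the 23 bases that follow the codons for tyrosine, tyrosine and cysteine that mark the start of that loop, and sequences are from the GENCODE M21 transcripts.
Igkv14-126, plus strand: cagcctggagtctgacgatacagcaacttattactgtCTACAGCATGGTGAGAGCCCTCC
Igkv15-103, plus strand: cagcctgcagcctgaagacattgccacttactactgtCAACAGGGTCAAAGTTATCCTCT
Igkv1-88, minus strand: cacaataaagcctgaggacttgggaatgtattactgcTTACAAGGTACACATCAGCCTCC
Igkv12-41, minus strand: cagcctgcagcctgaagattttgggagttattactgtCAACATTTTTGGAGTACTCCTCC
Igkv19-93, minus strand: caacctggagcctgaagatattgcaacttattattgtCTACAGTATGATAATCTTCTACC
Igkv5-39, minus strand: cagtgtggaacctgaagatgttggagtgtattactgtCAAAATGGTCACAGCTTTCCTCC

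V genes resemble each other, and reads that fit several of them are divided by estimation. Of the 100 functional genes, 42 shared at least 1 window of 101 bases with another Igkv gene, and 48 had a copy at least 95% identical. Among the 10 genes with the largest mean shares 4 shared windows: Igkv12-41 (5.26% of its windows), Igkv4-55 (15.4%), Igkv4-69 (7.26%) and Igkv1-135 (1.02%). Reads within those windows could be divided between genes, and how far this moves the values of the 4 was not tested. Igkv14-126, Igkv15-103, Igkv1-88, Igkv19-93, Igkv5-39 and Igkv5-48 shared none.

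The libraries held 19370135 to 28883330 estimated counts. Igkv genes took 5.69%, 7.39%, 9.25%, 3.41% and 0.934% of them in the wild-type PBS libraries, replicates 1 to 5. In the mutant PBS libraries they took 5.18%, 6.75%, 11.6%, 2.10% and 0.586%. The shares were 0.0403%, 0.00460% and 0.0426% in wild type after 5-FU and 5.10%, 2.68% and 1.05% in the mutant after 5-FU. The wild-type 5-FU libraries were the lowest of all, and the PBS groups overlapped across their whole range. The ratio of Igkv to Igkc counts was between 0.461 and 0.590 in every library, so V and constant counts moved together. The joining genes Igkj1 to Igkj5 were listed at 0 with an effective length of 0 and were not used here.

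These amounts set the precision of each share. The wild-type 5-FU libraries held 9668, 1299 and 8582 Igkv counts, and the other 13 held 117710 to 2602448. In wild-type 5-FU replicate 2 a count of 0 allows a share of up to 0.231%, against 0.000115% in the deepest library. These limits, and the Wilson 95% intervals given with shares, cover counting error only.

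Igkv14-126 had the largest share of any V gene in 12 of the 16 libraries, 9 of them among the 10 PBS libraries, and stood at 29.02% on average. In germline form with the heavy-chain gene Ighv11-2 it is known to encode antibodies to phosphatidylcholine made by B-1 cells, a self-renewing B-cell class. Its shares in wild type with PBS were 27.6%, 33.9%, 43.8%, 21.6% and 31.3% (31.6% ± 8.21, SD, n = 5). In the mutant with PBS they were 39.2%, 22.1%, 31.5%, 65.6% and 22.3% (36.2% ± 17.9, SD, n = 5). Every PBS library thus held at least 21.6% of this gene, and the genotypes overlapped. After 5-FU its shares were 0.672%, 5.70% and 56.8% in wild type, and 43.9%, 15.9% and 2.40% in the mutant. The 5-FU libraries of both genotypes ran from nearly none to the second highest share of the series, and 4 of the 6 were below all PBS libraries. By TPM, which corrects for length, it was also the largest in 12 libraries.

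**Figure D1:**
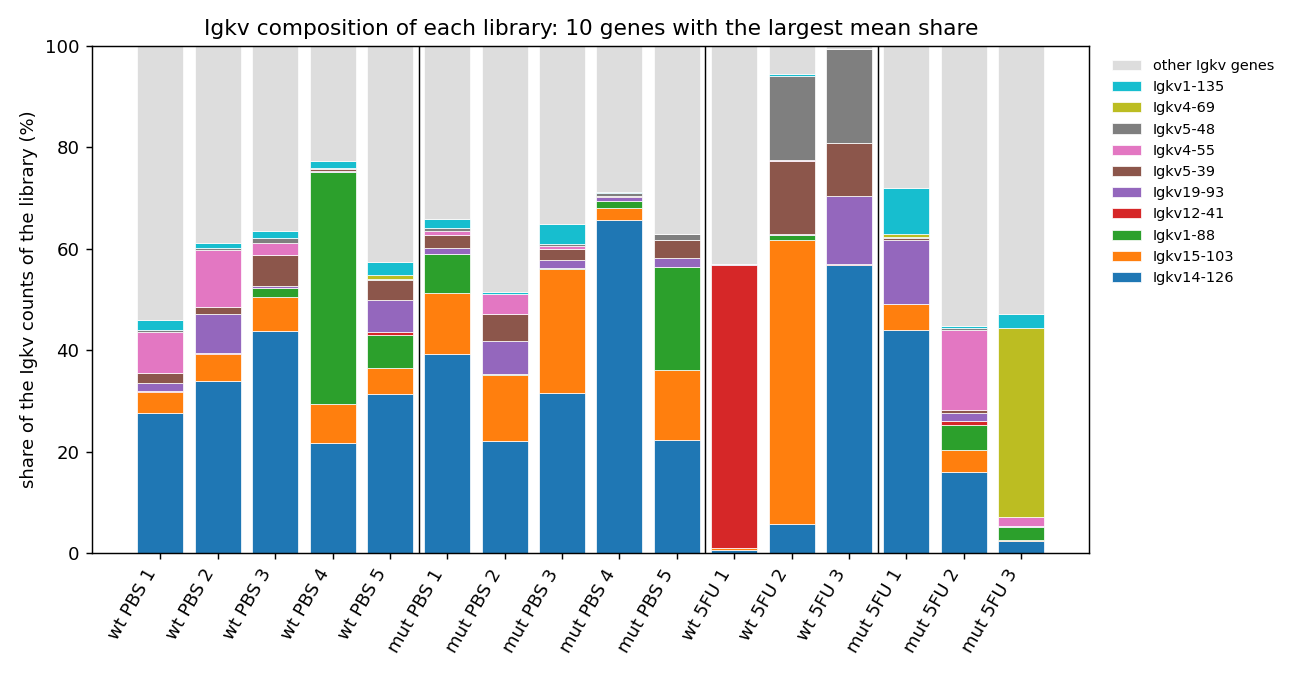
Stacked bars show, for each of the 16 libraries, the percentage of its Igkv counts from each of the 10 genes with the largest mean share and from all other Igkv genes, with vertical lines between groups. Igkv14-126, at the base, is the largest block in 12 libraries, and the 3 wild-type 5-FU libraries have 3 different largest genes.

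The other 4 libraries were led by 4 other genes. Igkv1-88 took 45.7% of wild-type PBS replicate 4, in which Igkv14-126 was next with 21.6%. Its second highest share was 20.3%, in mutant PBS replicate 5, and it was at 0.000622% to 7.66% in the other 14 libraries. Igkv12-41 took 55.7% of wild-type 5-FU replicate 1 (95% interval 54.8% to 56.7%) and was below 1% in the other 15. Igkv4-69 took 37.3% of mutant 5-FU replicate 3 and was likewise below 1% in the other 15. Igkv12-41 and Igkv4-69 were thus high in a single library each, while Igkv1-88 reached 1% in 9 libraries.

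Igkv15-103 differed from these in being spread widely. It led wild-type 5-FU replicate 2 with 56.1% (95% interval 53.4% to 58.8%, 729 of 1299 counts). In wild type with PBS its shares were 4.23%, 5.38%, 6.70%, 7.81% and 5.26%. In the mutant with PBS they were 12.03%, 13.0%, 24.6%, 2.46% and 13.8%, so that 4 of 5 exceeded all wild-type values. The edgeR quasi-likelihood test on counts gave a log2 fold change of 1.78 ± 1.55 (SE) between the PBS groups, with an adjusted p of 1.0 over all genes. After 5-FU its shares were 0.259%, 56.1% and 0.0583% in wild type and 5.24%, 4.38% and 0.180% in the mutant.

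The remaining leading genes were secondary in most libraries. Igkv19-93 was highest in wild-type 5-FU replicate 3 (13.5%) and mutant 5-FU replicate 1 (12.6%), and 0.103% to 7.76% in the others. Igkv5-39 and Igkv5-48, both of family 5, were highest in the same pair of libraries, wild-type 5-FU replicates 2 and 3. There Igkv5-39 took 14.4% and 10.3%, and Igkv5-48 took 16.5% and 18.6%. Elsewhere Igkv5-39 was at most 6.18% and Igkv5-48 at most 1.27%. Igkv4-55 reached 15.7% in mutant 5-FU replicate 2 and 11.3% in wild-type PBS replicate 2, and Igkv1-135 reached 9.15% in mutant 5-FU replicate 1.

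Few V genes were common to all libraries. A count above 0 was found in all 16 for 11 genes, and 0 genes reached 1% in all. The wild-type 5-FU libraries, with few Igkv counts, had counts for only 47, 41 and 27 genes, which limits that 11. The other libraries had counts for 57 to 93 genes. Of 59 genes that reached 1% in any library, 20 did so in 1 library only and 6 in 8 or more. Those 6 were Igkv14-126 (15 libraries), Igkv15-103 (13), Igkv19-93 and Igkv5-39 (10 each), and Igkv1-88 and Igkv1-135 (9 each). At 10% or more, 16 genes appeared, 9 of them in 1 library only, and Igkv14-126 passed that level in 13 libraries. Pseudogenes, which cannot encode a chain, took at most 0.210% of the Igkv counts of any library.

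By family, Igkv14 led with a mean share of 29.97%, nearly all from Igkv14-126. Igkv4, the largest family with 33 genes, followed with 11.9%, Igkv1 with 10.9% and Igkv15, which has a single functional gene, with 10.1%. The Igkv4 family was highest in mutant 5-FU replicate 3 at 54.7%. Families 18 and 20, of 1 gene each, stayed below 0.005% in every library.

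Position along the locus is of interest because joining brings distant and near V genes to the same J genes. The median distance of the 160 genes from Igkj1 is 1482.6 kb. Genes farther than that held 67.8% ± 13.7 (SD, n = 5) of Igkv counts in wild type with PBS and 77.2% ± 8.74 (SD, n = 5) in the mutant with PBS. After 5-FU they held 4.47%, 66.1% and 70.8% in wild type and 80.1%, 46.4% and 38.3% in the mutant. The low value is that of the library led by Igkv12-41, a gene 863.7 kb from Igkj1. Groups overlapped, and this measure was not tested.

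**Figure D2:**
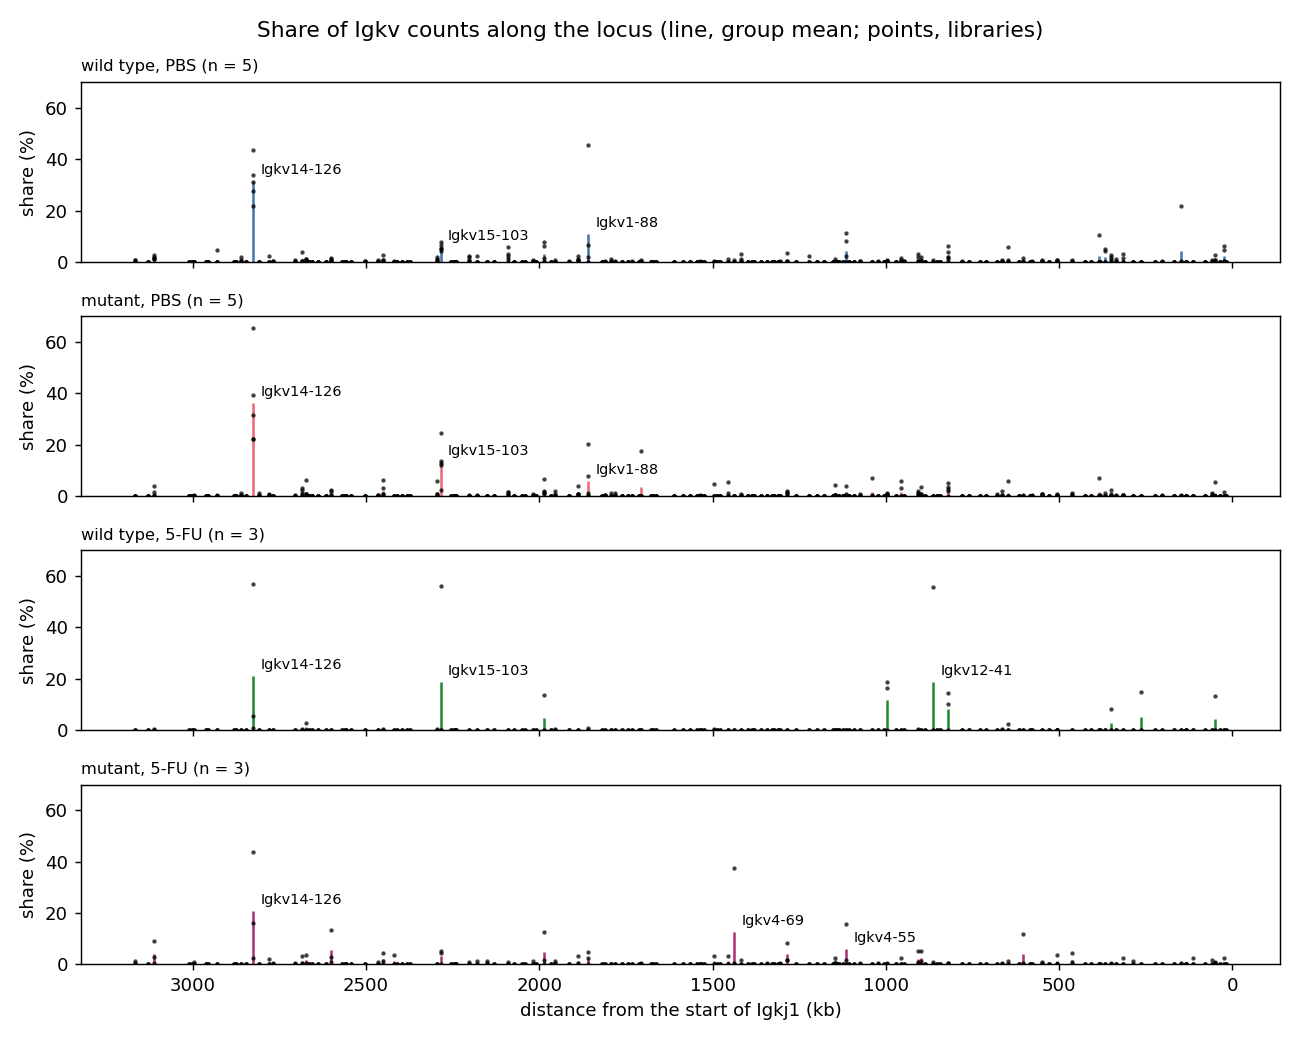
Each panel plots the share of Igkv counts (%) of the 160 genes against their distance from the start of Igkj1 (kb), for 1 group. Lines are group means, points are libraries and the 3 genes with the highest group means are named; Igkv14-126 at 2825.9 kb is among them in every group, and a single library makes up most of the means of Igkv12-41 and Igkv4-69.

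Dominance and diversity were compared between groups with exact two-sided permutation tests over libraries, 12 tests in all with Benjamini-Hochberg adjustment. Diversity was the effective number of genes, the exponential of the Shannon entropy of the shares, which counts how many equally used genes would give the same evenness. The smallest p such tests can give is 0.00794 for 5 against 5, 0.0357 for 5 against 3 and 0.1 for 3 against 3 libraries.

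Under PBS the genotypes overlapped in amount, dominance and diversity, each with a wide spread. The Igkv share of all counts averaged 5.33% ± 3.27 for wild type and 5.25% ± 4.32 for the mutant (SD, n = 5 each), and the exact permutation p was 0.984. The share of the largest gene was 36.4% ± 7.93 and 36.2% ± 17.9 (exact permutation p = 0.984). The effective number was 19.9, 14.5, 13.0, 7.09 and 10.4 in wild type and 12.6, 19.7, 11.2, 5.17 and 8.78 in the mutant (exact permutation p = 0.635). Same-numbered PBS libraries of the 2 genotypes deviated together, and the mutant had the lower effective number in 4 of 5 such pairs. Exact permutation tests within pairs gave p = 0.938 for the amount, 0.875 for the largest share and 0.5 for the effective number. These p-values do not show that the genotypes are alike.

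After 5-FU, wild-type libraries held few kappa counts, from few genes. Their largest genes took 55.7%, 56.1% and 56.8%, above every wild-type PBS library (27.6% to 45.7%), and these were Igkv12-41, Igkv15-103 and Igkv14-126. In each of them 4 genes made up 90% of the Igkv counts, against 9 to 26 genes in wild type with PBS. The effective number was 4.18, 4.48 and 3.30, below all others in wild type. The amount fell by 5.30 percentage points, the largest share was 19.8 points higher and the effective number was lower by 8.99 (difference −8.99). For each of the 3 the groups did not overlap, the exact permutation p was 0.0357, the smallest possible, and the adjusted p was 0.143. Leaving out any library gave the same directions but raised the smallest possible p above 0.05.

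A library with fewer counts shows fewer rare genes. Drawn down to 1299 Igkv counts, the size of the smallest library, the 3 wild-type 5-FU libraries showed 19.7, 41.0 and 10.0 genes, against 29.7 to 55.2 in wild type with PBS. These overlap, and the exact permutation p of the difference (−21.6 genes) was 0.107. The inverse Simpson index, which weights the common genes, was 2.59 to 2.79 in wild type after 5-FU and 3.74 to 9.36 with PBS, without overlap.

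In the mutant, dominance and diversity after 5-FU overlapped those with PBS. The effective number was 9.15, 22.2 and 11.6 (14.3 ± 6.92, SD, n = 3) against 11.5 ± 5.39 (SD, n = 5) with PBS, and the exact permutation p was 0.5. The largest genes took 43.9%, 15.9% and 37.3%, overlapping the PBS range of 22.1% to 65.6% (exact permutation p = 0.786). The amount differed by −2.31 percentage points (exact permutation p = 0.5), and by −0.71 points without mutant PBS replicate 3. Between genotypes after 5-FU the mutant had 2.91 points more Igkv counts, a largest share 23.8 points lower (difference −23.8) and an effective number higher by 10.3. Without mutant 5-FU replicate 1 the amount differed by 1.84 points. Without mutant 5-FU replicate 2 the largest share differed by −15.6 points and the effective number by 6.36. None of these 3 measures overlapped, and the exact permutation p was 0.1 for each, the smallest possible, with an adjusted p of 0.2. Drawn down to 1299 Igkv counts, the mutant 5-FU libraries showed 47.3, 49.6 and 37.5 genes. These overlap the wild-type 5-FU values of 19.7, 41.0 and 10.0 genes. The 5-FU libraries of the genotypes also differ in how their codes are written, as given below, so genotype and writing cannot be told apart.

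**Figure D3:**
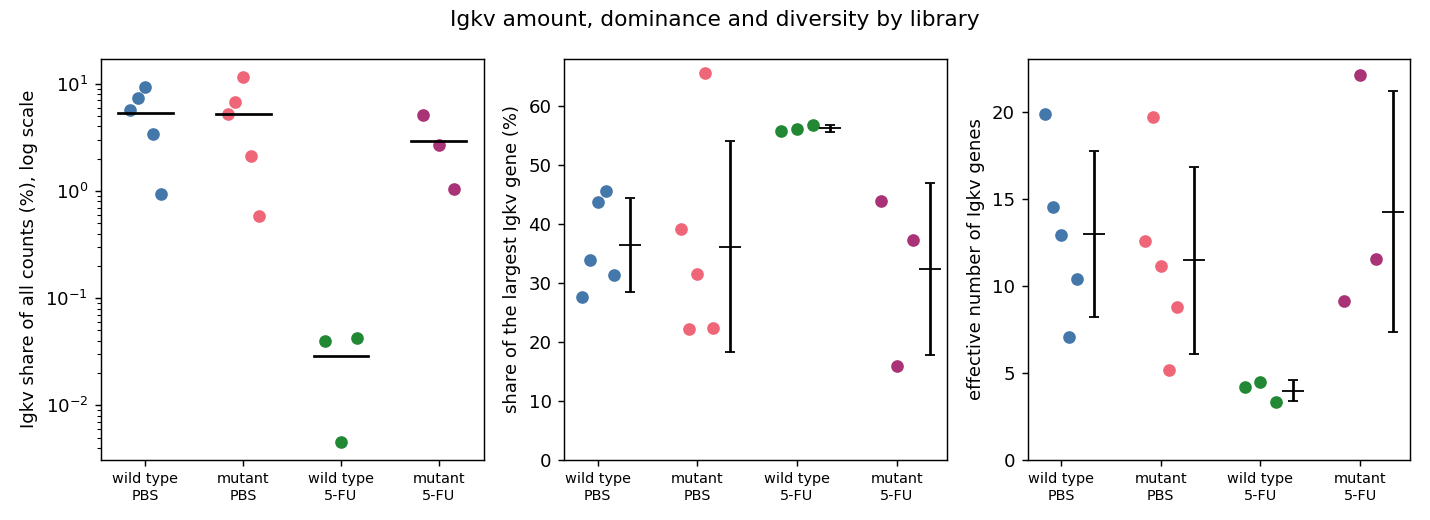
Points are libraries in 4 groups; panels give the Igkv share of all counts (%, log axis, line at the mean), the share of the largest Igkv gene (%) and the effective number of Igkv genes, the last 2 with the mean and SD at the right of the points. The 3 wild-type 5-FU libraries lie below 0.05% of counts, between 55.7% and 56.8%, and between 3.30 and 4.48 genes.

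Single genes were tested with edgeR's quasi-likelihood test across the 16482 genes that passed the filter on low counts, with Benjamini-Hochberg adjustment over all of them. The filter kept 91 of the 160 Igkv genes. It keeps a gene that is high in a single group, so counts over the 91 are descriptions.

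Under PBS, 0 of 91 Igkv genes passed in either direction, while 0.0182% of all genes tested were called higher in the mutant and 0% lower. DESeq2 called 3 lower. The median log2 difference was −0.45 over the Igkv genes and −0.02 over all genes. Igkv14-126 differed by −0.06 ± 1.45 (SE), with a mean CPM (counts per 1000000 of the TMM-scaled library) of 26330 in wild type against 25215 in the mutant.

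In wild type, 20 of 91 Igkv genes fell after 5-FU (22.0%) and 0 rose, while 9.31% of all genes fell and 5.55% rose. The median log2 difference was −12.82 over the 91, against −0.11 over all genes. That median includes genes at or near 0 counts in wild type after 5-FU, whose folds are very large and imprecise. The summed Igkv level fell from a mean of 72788 CPM to 218 CPM, and Igkc had a log2 fold change of −8.46. Igkv14-126 fell from 17498, 30350, 74120, 7489 and 2194 CPM with PBS to 1.97, 1.97 and 185 CPM, without overlap. Its log2 fold change was −8.71 ± 2.57 (SE, edgeR adjusted p = 0.0414). Igkv15-103 fell by 9.33 and Igkv1-88 by 13.52 on the log2 scale (edgeR adjusted p = 0.0414 and 0.0420). Igkv12-41 did not pass, with means of 45.1 CPM with PBS and 54.6 CPM after 5-FU, the latter nearly all from replicate 1 (164 CPM).

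Among the genes called, the 5 largest falls were in genes of 5 families that were nearly absent after 5-FU. Igkv3-2 had 110401 counts over the 5 PBS libraries and 1 over the 3 after 5-FU, a ratio with a 95% counting interval of 18030 to 3968026. Igkv12-89 went from 65418 to 3 counts (interval 6790 to 96221) and Igkv6-15 from 53470 to 2 (interval 6734 to 200888). Igkv10-96 went from 1651 to 0.0494 CPM and Igkv17-121 from 1449 to 0.0545 CPM on average. The edgeR adjusted p of the 5 ran from 0.0120 for Igkv12-89 to 0.0435 for Igkv3-2. Igkv10-96 and Igkv17-121 share 11.97% and 16.6% of their windows with other V genes.

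The count of 20 rests on few libraries. It was 0 without wild-type 5-FU replicate 1 or replicate 2 and 3 without replicate 3. It was 12, 13 and 11 without wild-type PBS replicates 1, 2 and 3, and 32 without replicate 5. The labels also carry codes written with or without a leading zero, of unstated meaning. With that writing as a covariate 4 genes were called. After 5-FU every wild-type code lacks the zero and every mutant code has it, so there genotype and writing cannot be told apart. With PBS both genotypes hold both writings. The Igkv share of all counts was 5.18% to 11.6% in PBS libraries with the zero and 0.586% to 3.41% without.

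In the mutant, 1 of 91 Igkv genes rose after 5-FU and 0 fell, while 0.837% of all genes rose and 1.36% fell. The gene was Igkv4-69, at 287, 0.507 and 3167 CPM after 5-FU and at most 0.468 CPM in the 5 mutant PBS libraries. Its log2 fold change was 13.20 ± 3.13 (SE, edgeR adjusted p = 0.0497), and the adjusted p was 0.167 without mutant 5-FU replicate 3, which it leads. Of the 23 alternatives tried the call held in 8. Igkv14-126 had 22204, 3914 and 204 CPM after 5-FU, against 980 to 72284 CPM with PBS, and a log2 difference of −1.52 ± 1.78 (SE, edgeR adjusted p = 0.806). The median difference was −1.36 over Igkv genes and −0.03 over all genes.

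After 5-FU, 2 of 91 Igkv genes were higher in the mutant than in wild type (2.20%) and 0 lower, while 1.49% of all genes were higher and 0.461% lower. They were Igkv1-117, at 1349, 211 and 1146 CPM in the mutant against 0.0607, 0.0798 and 0.0380 CPM in wild type, and Igkv12-89, at 1555, 80.4 and 0.0608 CPM against 0.0607, 0 and 0.0380 CPM. Their log2 fold changes were 13.74 ± 2.75 (SE, edgeR adjusted p = 0.0278) and 13.87 ± 3.11 (SE, edgeR adjusted p = 0.0430). In mutant replicate 3 Igkv12-89 stood at the level of the highest wild-type library. The median over the 91 was 11.11, against 0.07 over all genes. It likewise includes genes at or near 0 counts in wild type after 5-FU. The summed Igkv level averaged 27878 CPM in the mutant and 218 CPM in wild type after 5-FU. Igkc differed by 6.95 on the log2 scale (edgeR adjusted p = 0.054). Code writing and genotype coincide after 5-FU, as given above. The count of 2 became 0 without any 1 of the wild-type 5-FU libraries or mutant 5-FU replicate 1, and with code writing as a covariate. It was 1 without wild-type PBS replicate 1 or mutant PBS replicate 1, 4 or 5 without wild-type PBS replicate 3 or 5 or mutant PBS replicate 3, 4 or 5, and 58 by DESeq2.

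The test of the difference between the 5-FU responses of the 2 genotypes called 1 of 91 Igkv genes higher and 0 lower, while 0.558% of all genes were called higher and 0.0303% lower. Igkv1-117 was the gene, with an interaction log2 fold change of 14.30 ± 2.91 (SE, edgeR adjusted p = 0.0490). Over its 22 alternatives the adjusted p ran from 3.69e-10 with DESeq2 to 0.221 without wild-type 5-FU replicate 2, and the call held in 7. This gene shares 15.5% of its windows with other V genes, its closest copy being Igkv1-110 at 97.5% identity. The same libraries enter several comparisons: each 5-FU group is used in its own response and in the comparison between genotypes.

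Plasma cell, mature B cell and secretory transcripts moved with the Igkv genes. Many erythroid, T cell, neutrophil and monocyte genes, given after them, also fell in wild type after 5-FU. Of these other lineages, only the erythroid list had genes called higher in the mutant than in wild type after 5-FU. Igkc, the kappa constant gene, averaged 141430 CPM in wild type with PBS, 149871 in the mutant with PBS, 402 in wild type after 5-FU and 49580 in the mutant after 5-FU. For all marker lists, the counts stand beside these shares of all genes tested. After 5-FU 9.31% fell and 5.55% rose in wild type, and 1.36% fell and 0.837% rose in the mutant. Between genotypes after 5-FU, 1.49% were higher and 0.461% lower in the mutant. Of 10 plasma cell markers 9 fell in wild type after 5-FU and 6 were higher in the mutant than in wild type after 5-FU. Their summed level was 667 to 4705 CPM and 461 to 6132 CPM in the PBS groups, 221 to 391 CPM in wild type after 5-FU and 729 to 2595 CPM in the mutant after 5-FU. Tnfrsf17, the BCMA receptor of plasma cells, was at most 0.182 CPM in wild type after 5-FU and 4.56 to 58.5 CPM in the mutant. Neither Tnfrsf17 nor Igkc passed between genotypes after 5-FU (edgeR adjusted p = 0.0574 and 0.054).

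Of 12 mature B cell markers 9 fell in wild type after 5-FU and 5 were higher in the mutant after 5-FU. Their sum was 26.2 to 35.2 CPM in wild type and 75.7 to 235 CPM in the mutant after 5-FU, and 114 to 1023 CPM with PBS. Ms4a1, the CD20 antigen, was at 0.0911, 0 and 0 CPM in wild type after 5-FU. Of 10 secretory partners, the J chain and the constant genes of other chains, 8 fell in wild type and 3 were higher in the mutant after 5-FU. The part of these cell types in the Igkv differences was not tested.

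The summed markers of light chain rearrangement and pre-B cells did not follow the same order. Dntt made up most of that sum in wild type after 5-FU, at 63.1, 31.7 and 143 CPM. By group mean after 5-FU, Dntt, Rag1 and Rag2 were lower in the mutant than in wild type. Il7r, Vpreb3, Igll1, Lef1, Vpreb1 and Vpreb2 were higher by that measure. Their sum was 33.8 to 146 CPM in wild type and 12.9 to 46.0 CPM in the mutant after 5-FU, and these ranges overlapped, with medians of 65.0 and 27.7 CPM. The recombinase gene Rag1 was at 0 in all 3 mutant 5-FU libraries and at most 0.0304 CPM in wild type after 5-FU. Of the 9 genes all fell in wild type after 5-FU and 3 fell in the mutant. Between genotypes after 5-FU 1 was higher in the mutant, Il7r (log2 fold change 6.00, edgeR adjusted p = 0.0031). Dntt was the 1 that was lower (log2 fold change −3.48, edgeR adjusted p = 0.00815).

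Markers outside the B lineage differed between the groups too. The 8 LSK markers, which include Kit and Ly6a, summed to 2646 to 5130 CPM in wild type and 2083 to 4449 CPM in the mutant with PBS. After 5-FU they summed to 1818 to 2222 CPM in wild type and 1319 to 1594 CPM in the mutant, without overlap. The PBS sums depend much on Ly6a, which alone ran from 185 to 3787 CPM in wild type with PBS. In wild type after 5-FU, 1 of the 8 rose, Mecom (log2 fold change 1.35, edgeR adjusted p = 0.0464), and 1 fell, Flt3. In the mutant after 5-FU 0 rose and 2 fell, Flt3 and Cd34. Of these 8, Flt3 and Cd34 were lower in the mutant than in wild type after 5-FU, by log2 fold changes of −2.56 and −1.67 (edgeR adjusted p = 0.00107 and 0.0358). Of 6 erythroid genes 5 fell in wild type after 5-FU, and 2, the globin genes Hba-a1 and Hba-a2, were higher in the mutant than in wild type after 5-FU. Their sum was 283 to 1710 CPM and 61.9 to 989 CPM with PBS in wild type and mutant, 47.8 to 192 CPM in wild type after 5-FU and 217 to 550 CPM in the mutant after 5-FU. Of 6 T cell genes tested 4 fell in wild type and 1 in the mutant after 5-FU, with sums of at most 1.14 CPM after 5-FU and 3.40 to 15.3 CPM with PBS. Of 8 neutrophil and monocyte genes 5 fell in wild type and 2 in the mutant after 5-FU, with sums of 138 to 2734 CPM and 382 to 863 CPM, against 6210 to 30208 CPM with PBS. The part of these cell types in the Igkv differences was likewise not tested.

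Sharing between libraries was measured as the overlap of their Igkv shares, the sum over genes of the smaller share of the pair, over 120 pairs. The median overlap was 42.4% for the 26 pairs within a group and 35.5% for the 94 pairs between groups. Without the wild-type 5-FU libraries the medians were 42.8% within and 43.4% between groups. These pairs share libraries and were not tested. With Igkv14-126 left out they were 28.3% and 30.2%.

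The most alike pair was wild-type PBS replicate 3 with mutant PBS replicate 1, at 68.2%. Wild-type PBS replicate 4 and mutant PBS replicate 5, both rich in Igkv1-88, were each other's nearest library at 53.2%. The 3 wild-type 5-FU libraries shared 1.09%, 2.33% and 32.96% with each other. The nearest library to wild-type 5-FU replicate 1 had an overlap of 8.99%, and that to wild-type 5-FU replicate 3 was mutant PBS replicate 4 at 58.8%, or 5.66% without Igkv14-126. Mutant 5-FU replicate 3, led by Igkv4-69, overlapped its nearest library by 21.7%. Pairs whose codes start alike had a median overlap of 35.5% (16 pairs) and other pairs 37.5% (104 pairs).

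**Figure D4:**
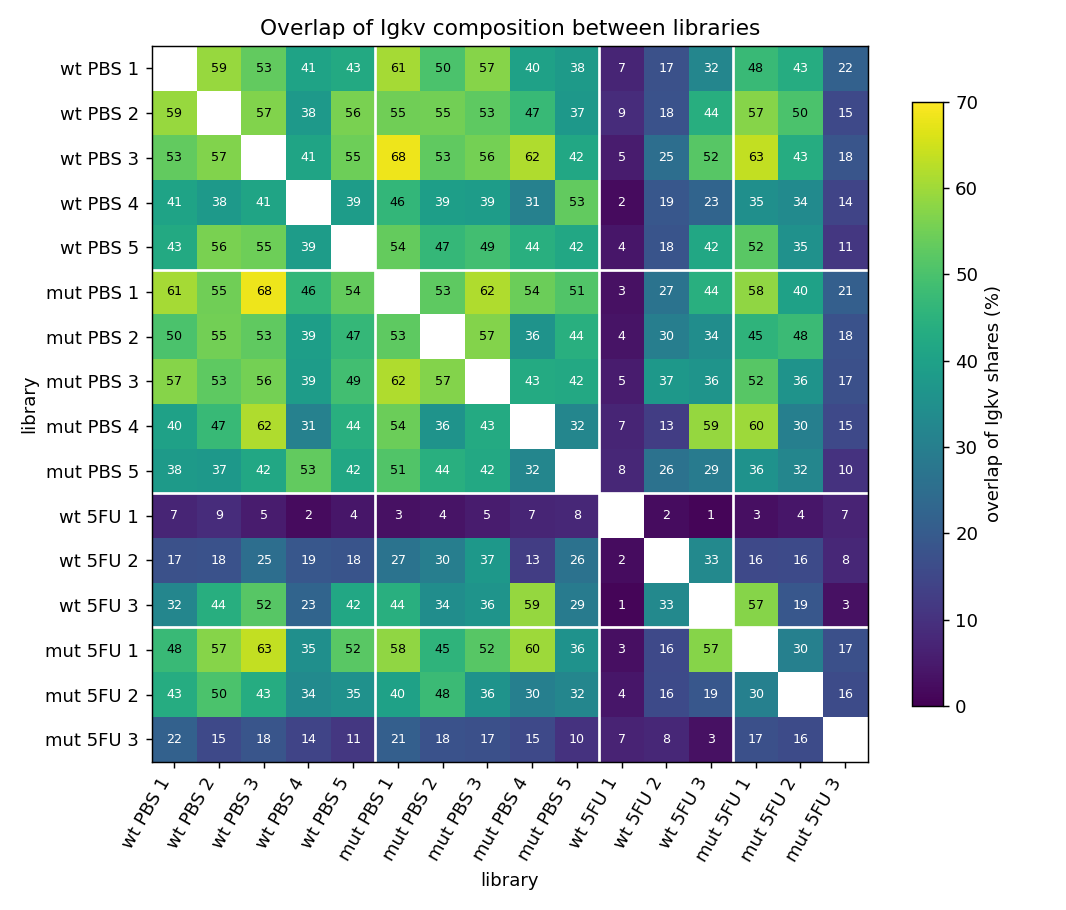
Matrix of the overlap of Igkv shares (%) between all pairs of the 16 libraries, with white lines between groups and the diagonal left blank. Wild-type 5-FU replicate 1 overlaps every other library by less than 10%, while the PBS libraries of both genotypes overlap each other by 30.8% to 68.2%.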

How the data were processed

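RNA-seq of 16 sorted LSK samples was analysed. Per the submitters' processing notes, RSEM 1.3.1 and FastQC 0.11.2 were used with mm10 (GRCm38); for aligner and annotation, none is named in the sources used here. The deposited files give, per gene, expected counts, TPM and FPKM as the authors' RSEM output; expected counts were rounded for tests, TPM was used as a check of shares, and FPKM, like the other deposited columns, was not used. Shares are expected counts over their Igkv sum. edgeR 4.0.16 (R 4.3.3) fitted all 4 groups with TMM scaling and filterByExpr (minimum count 10), adjusted p under 0.05, and was tested on simulated data; DESeq2 1.42.0 was an alternative. CPM use TMM factors (0.508 to 1.37). Permutation tests used scipy 1.17.1, and transcripts were aligned with Biopython 1.88; all 160 Igkv IDs matched GENCODE M21.

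Named were Igkv14-126, the largest gene of each library, the 10 with the largest mean share and, per comparison, up to 5 rises and 5 falls with adjusted p under 0.05, log2 change of at least 1 and at least 5 CPM in the higher group. Members and lists were chosen with earlier results of these data known. Same-numbered PBS samples of the 2 genotypes deviated together (correlations 0.165 to 0.569), so their numbers were taken as pairs, from the data and not the labels. In both PBS groups the lower numbers have codes with the leading zero and the higher numbers lack it. How much of the shared deviation goes with code writing was not tested. Alternatives covered scaling, filters, covariates, tools, diversity measures and leaving out each library.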

Additional observations from a re-analysis of the deposited data

Results flagged for a closer look

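In 8 of 38 gene or measure by group combinations of 5 PBS libraries, 1 library lay far from the rest by Dixon's test. That test flags about 1 in 20 sets of unselected, normally spread values. Several genes here were named for a high share in 1 library, and shares are skewed. That rate is therefore no baseline, and the 8 are a description. Each is a share of Igkv counts. In wild type with PBS, Igkv1-88 was at 45.7% in replicate 4, Igkv12-41 at 0.609% and Igkv4-69 at 0.791% in replicate 5, and Igkv17-121 at 3.94% in replicate 3. In the mutant with PBS, Igkv19-93 was at 6.52%, Igkv4-55 at 3.85% and Igkv3-2 at 1.43%, all in replicate 2, and Igkv12-89 was at 3.835% in replicate 5. Igkv4-69 was at most 0.000280% in the other 4 wild-type PBS libraries.

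The response of Igkv1-117 to 5-FU differed between genotypes in edgeR's interaction test, with a log2 fold change of 14.30 and an adjusted p of 0.0490 (1 gene of 91, with the library dependence given above).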

How the results depend on the processing

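The number of Igkv genes called depended on the settings. Shares of all genes called under the other settings are not given, so these counts describe only the dependence on settings. For the wild-type response to 5-FU (20 genes) it was 9 with no filter on low counts, 4 with code writing as a covariate, 72 by DESeq2, and 0 to 32 leaving out a library. For the genotypes after 5-FU (2) the values were 1, 0, 58 and 0 to 5, and 15 when only the groups compared were fitted. For the mutant response (1) no filter gave 0, DESeq2 8, and leaving out a library 0 to 1. For the interaction (1) the same settings gave 0 with no filter, 0 with code writing, 42 by DESeq2, 0 to 3 leaving out a library, and 0 with TMM scaling without immunoglobulin genes. Under PBS (0), DESeq2 called 3 and leaving out a library 0.

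With the replicate number as a block, the counts were 0 under PBS, 12 after 5-FU between genotypes, 51 for the wild-type response, 1 for the mutant response and 5 for the interaction. The 1 was Igkv6-29 (adjusted p = 0.00215), while Igkv4-69 had an adjusted p of 0.0683 with the block. Fitting only the groups compared likewise left 1, Igkv9-123 (0.00184), and Igkv4-69 at 0.0940. Igkv6-29 and Igkv9-123 were named here after their values were seen. Pairing is seen under PBS, where 9 of 10 samples correlated best with their own number, and the block changed no call there. In the other comparisons samples share only a number: 5 of 6, 2 of 6 and 1 of 6 correlated best with their own.

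Leaving out a library, the wild-type difference after 5-FU ran from −6.40 to −4.32 points for the amount, 17.6 to 22.1 for the largest share and −10.5 to −7.26 for the effective number, none with an exact permutation p under 0.05, since neither 4 against 3 nor 5 against 2 libraries can give one. Without the library under 5000 Igkv counts the last 2 were 19.8 and −9.24 (exact permutation p = 0.0952, the smallest possible); the number of genes found at 1299 counts, in place of the effective number, differed by −21.6 (exact permutation p = 0.107). Between genotypes after 5-FU the ranges were 1.84 to 3.86, −29.6 to −15.6 and 6.36 to 12.9, and the amount in the mutant response ran from −3.47 to −0.71. The remaining differences, none past the threshold, changed sign. Under PBS the amount ran from −1.68 to 1.08 points, the largest share from −7.65 to 3.22 and the effective number from −3.55 to 0.236, 0.121 summed by family and 0.0696 as inverse Simpson index. In the mutant response the largest share ran from −9.53 to 4.45 (3.71 by family) and the effective number from −1.13 to 5.37 (−0.541 by family). In the other 157 checks the count stayed within 1.5 times, or the group measure kept its direction and its side of the threshold. For single called genes, 342 of 526 alternative fits kept the call and 184 lost it, with no change of sign. In wild-type 5-FU replicate 2, with 1299 Igkv counts, a count of 0 allows a share of up to 0.231%.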

Other observations

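Some of the leading kappa and heavy-chain V genes were high in the same libraries. Ighv11-2, the usual heavy-chain partner of Igkv14-126 in antibodies to phosphatidylcholine, had the largest share of Ighv counts in 8 libraries and ranged from 0.517% to 57.3%. In an analysis chosen after the data were seen, the 10 leading Igkv genes were set against the 10 leading Ighv genes across the 16 libraries, 100 relations in all, with permutation tests (100000 resamples, two-sided) and Benjamini-Hochberg adjustment. Of these, 4 passed an adjusted p of 0.05 by both Pearson's r and Spearman's rho. The tests treated all 16 libraries as exchangeable. The libraries fall into 4 groups that differ in Igkv counts, and same-numbered PBS libraries of the genotypes deviated together. The p-values below may therefore be too small, and permutation within groups or pairs was not tested.

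Igkv14-126 with Ighv11-2 gave r = 0.93 and rho = 0.94 (n = 16, permutation p = 1e-05 for each, the smallest the resamples can give; adjusted p = 0.000333 and 0.0005). Without the 2 libraries farthest from the median share of the kappa gene r was 0.88, and within the 10 PBS libraries it was 0.90.

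Igkv1-88 with Ighv5-16 gave r = 0.99 and rho = 0.93 (permutation p = 1e-05 for each, adjusted p = 0.000333 and 0.0005), with r = 0.92 without 2 libraries. Ighv5-16 took 69.9% and 34.6% of Ighv counts in wild-type PBS replicate 4 and mutant PBS replicate 5, the 2 libraries richest in Igkv1-88. Within the PBS libraries rho was 0.93.

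Igkv15-103 with Ighv7-1 gave r = 0.97 and rho = 0.88 (permutation p = 1e-05 and 3e-05, adjusted p = 0.000333 and 0.001), 0.95 without 2 libraries and 0.96 within PBS. Igkv19-93 with Ighv9-3 gave r = 0.89 and rho = 0.83 (permutation p = 6e-05 and 0.00012, adjusted p = 0.0015 and 0.003), 0.79 without 2 libraries and 0.78 within PBS. Shares within a library sum to a fixed total, and these bulk data do not show which chains were made by the same cell.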
